A study of Mus musculus with 35 samples.

Results

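One-cell input from an averaged lysate was compared with ten-cell input from sorted side population (SP) cells of mouse bone marrow. SP cells are marrow cells that pump out the dye Hoechst, and the fraction is rich in hematopoietic stem cells, which stay mostly quiescent and give rise to all blood lineages. The single-cell-equivalents (SCE A to E) came from 1 lysate: 40 SP cells from the tip of the SP were lysed together in 160 µl and 4 µl, the volume of 1 cell, was amplified for each of 5 arrays. Every SCE therefore holds the same mixture of cells, and what differs between SCE is the sampling of molecules, the amplification and the array. The ten-cell samples were amplified from 10 cells at a time, and the paper describes pooling 4 such amplifications so that replicate arrays could be run. They came from the lower part of the SP (LSP A, B and M) or its upper part (USP N, O and Z). There were 3 samples of each and 2 arrays per sample, which were averaged. These 17 of the 35 arrays of the series were chosen by their labels alone.

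All cells were Sca-1 positive and Gr-1 negative and came from C57Bl/6 mice (the methods name the CD45.1 strain), with no genetic change or treatment. The labels call the mice male for LSP and SCE and give no sex for USP, and no age for any group. The RNA was copied by global single-cell RT-PCR, which makes short cDNAs from the 3′ ends of messages, tails them and amplifies them by PCR, and was read on Affymetrix MG-U74Av2 arrays. Input amount, pooling of amplifications, SP gate, sorting experiment and kind of deposited values all change together between SCE and ten-cell samples. Their shares in any difference cannot be told apart. The 5 SCE are technical aliquots, and their p-values cover the spread between aliquots of this lysate, not between mice. In pooled cells, fewer cells of a type and less RNA per cell cannot be told apart.

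The deposited values are linear intensities scaled to a trimmed mean between 243.8 and 248.1 on these 17 arrays. Of the 12 ten-cell arrays, 9 hold negative values, for 24.6% to 32.1% of their probe sets, while the SCE arrays hold positive values alone. Values under 128 were set to 128, a log2 level of 7 that is called the floor below, and all levels here are log2 intensities. Of 4 stem cell markers on the array, Lmo2, Tal1 and Tie1 were measured in both inputs, while Ctla2a was at the floor in all ten-cell samples and above it only in SCE E (7.71). The summed intensity of the 4 over the floor ran from 4142 to 7247 in SCE, from 4415 to 6372 in LSP and from 3754 to 8136 in USP, and was 0 on all CD8 T cell arrays. The T cell genes Cd3d, Cd3e, Cd3g, Cd8a and Cd8b1 were at the floor in all 5 SCE, whereas the sixth, Zap70, was 9.18, 7.51, 7.66 and 8.03 in SCE B to E on probe set 93663_r_at, and at the floor in all SCE on its other probe sets.

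Lmo2, the LIM-domain adaptor that joins Tal1 and Gata factors and is needed to form blood stem cells, was seen in every one-cell aliquot. On probe set 96810_at its level was 11.32, 12.42, 10.27, 10.26 and 10.53 in SCE A to E, against 10.24, 10.74 and 11.34 in LSP and 10.17, 10.41 and 11.54 in USP. The ranges overlap, and the difference of 0.22 ± 0.46 (SE) did not pass the test (limma adjusted p = 0.801). The second Lmo2 probe set, 93666_at, was dimmer, with 7.71 to 9.28 in SCE and 7.0 to 10.43 in ten-cell samples, where LSP M was at the floor (difference -0.39 ± 0.63, limma adjusted p = 0.737). So the 2 probe sets were above the floor in 5 of 5 SCE each, although the level of 96810_at ranged over more than 2 log2 units between aliquots of 1 lysate.

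Hba-a1, the alpha chain of adult hemoglobin and a product of red cell precursors, was far higher in the lysate than in the ten-cell samples. Its level was 11.46, 12.68, 12.61, 13.11 and 13.38 in SCE A to E, against 7.0, 7.97 and 8.75 in LSP and 11.27, 10.94 and 10.74 in USP. No SCE overlapped any ten-cell sample, and the difference was 3.20 ± 0.40 (SE), at least 9.20-fold since LSP A is at the floor, with a limma adjusted p of 0.00219. Within the ten-cell samples Hba-a1 was itself split by gate, by 3.08 between USP and LSP (limma adjusted p = 0.109), so the size of the difference depends on which of them is the reference. It was 4.74 against LSP alone (limma adjusted p = 0.00599) and 1.66 against USP alone, which did not pass (limma adjusted p = 0.114). In the 12 single SP cells of the same series the median Hba-a1 level was 7.98 and the highest 10.39, below every SCE. On the CD8 T cell arrays Hba-a1 was 7.0 to 11.07.

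The other red cell markers did not all follow Hba-a1. Hbb-b2, a beta hemoglobin chain, was 9.33 to 9.68 in SCE and 7.70 to 9.58 in ten-cell samples, higher by 0.75 ± 0.16 (limma adjusted p = 0.0346), with overlap and with 1.30 against LSP but 0.20 against USP (limma adjusted p = 0.637). Alas2, the first enzyme of heme synthesis in red cells, was at the floor in all ten-cell samples and in SCE A, B and E, and reached 8.08 in SCE C and 7.20 in SCE D. Car2, carbonic anhydrase 2, was above the floor only in SCE D and E (9.21 and 7.42) and in LSP A and USP Z (8.45 and 8.11). Summed over these 4 genes, the red cell signal ran from 3208 to 11282 in SCE, from 2248 to 3017 in USP and from 240 to 598 in LSP. On CD8 T cell arrays the sum ran from 0 to 2583. Of 15 erythroid probe sets tested, Hba-a1 and Hbb-b2 were higher and none was lower (over all tested, 3.06% were higher and 1.93% lower), with a median difference of 0.10 against 0.009 over all 8226 probe sets tested. Whether red cells or their free RNA entered the sort of the lysate was not tested.

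Several markers of other cells were above the floor in some aliquots and not in others. S100a8, the neutrophil alarmin, was 9.56 to 11.78 in the 6 ten-cell samples but 7.0, 12.66, 7.0, 7.0 and 8.69 in SCE A to E, and did not pass the test (limma adjusted p = 0.252). Its partner S100a9 was 9.02 in SCE C and 10.25 in SCE D and at the floor in the other 3, so the 2 partners were not seen above the floor in the same aliquot. Lyz2, the lysozyme of myeloid cells, was by contrast above the floor in all samples on probe set 100611_at, with 10.88, 10.76, 9.43, 10.29 and 11.23 in SCE and 9.41 to 10.72 in ten-cell samples (limma adjusted p = 0.351). Ctsw, a protease of cytotoxic lymphocytes, was 11.90 in SCE C and at the floor in the other 4 SCE and in every ten-cell sample. Cd79b, a chain of the B cell receptor complex, reached 11.71 in SCE B, 8.14 in SCE A and the floor in SCE C, D and E. In ten-cell samples Cd79b was 7.0 to 9.85. Cd37, a B cell tetraspanin, was 13.03 in SCE A, 8.38 in SCE C and at the floor in the other 3. In ten-cell samples Cd37 was 7.57 to 11.93. Vwf, made by megakaryocytes and some stem cells, was 10.77 in SCE C and at the floor in SCE A and B on probe set 103499_at. The ten-cell samples had 7.0 to 8.97 there. Pf4, Vwf on probe set 97052_at and Lyz2 on probe set 162309_at were at the floor in every SCE and ten-cell sample. Mpo and Elane were at the floor in every ten-cell sample and at most 7.66 and 7.16 in SCE. Cd79a was 7.17 to 9.36 in SCE A, B, D and E and 7.0 to 8.88 in ten-cell samples. The summed granulocyte signal was 953 to 7941 in SCE, 1068 to 3876 in LSP and 3795 to 5037 in USP, and the summed B cell signal 65 to 3663, 0 to 606 and 599 to 1414. None of the 18 granulocyte, 8 megakaryocyte, 18 B-lineage or 10 T-lineage probe sets tested passed in either direction, and their median differences were -0.11, 0.30, 0.05 and 0.11. At the shares over all tested, 3.06% higher and 1.93% lower, lists of this size would hold few calls or none.

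The number of probe sets seen per array depended on the level at which it was counted. Above the floor of 7 an SCE held 3347 to 4120 probe sets (3703.4 ± 381.8, SD, n = 5) and a ten-cell sample, counted on its array numbered 1, 3075 to 3962 (3554.3 ± 299.4, SD, n = 6), a difference of 149.1 that did not pass an exact permutation test (two-sided p = 0.502). Above a level of 8 the SCE held fewer, 2023 to 2377 against 2459 to 3220, a mean difference of -633.3, with no overlap (exact permutation p = 0.00433, the smallest that 462 splits allow for this design). Above 9 the difference was -640.4 and above 10 it was -276.7, each again with no overlap and the same exact p. Above 6 the order was turned, with 5345 to 6284 in SCE against 4077 to 4964, but the 3 ten-cell arrays of positive values alone had 5603 (LSP B, array 2), 4964 and 4837 (USP Z). Numbers above levels over 10 were not compared.

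**Figure D1:**
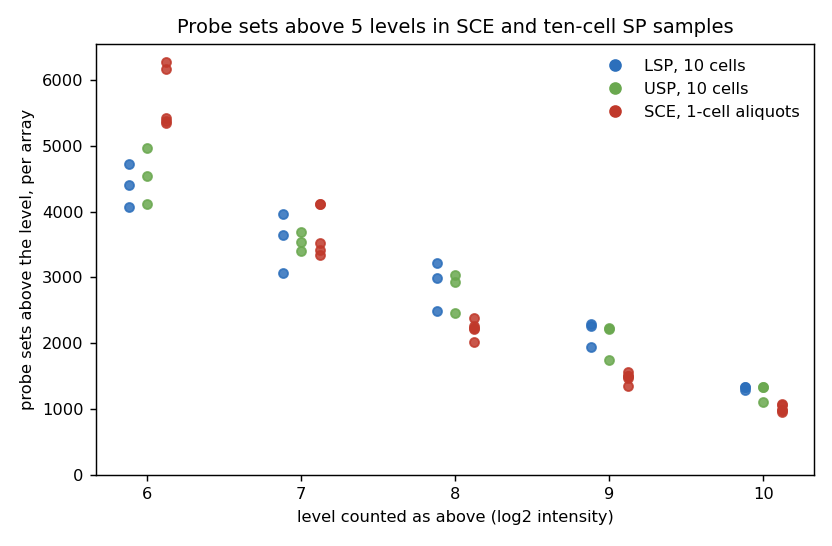
Number of probe sets per array (y axis) above log2 levels of 6 to 10 (x axis), with 1 point for each LSP, USP and SCE sample and ten-cell samples counted on their arrays numbered 1. At 7 the groups overlap, and at 8, 9 and 10 all 5 SCE lie below all 6 ten-cell samples.

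The signal of an SCE was concentrated in few probe sets. The 100 brightest probe sets took 22.4% to 28.0% of all signal in SCE (24.6 ± 2.1, SD, n = 5) and 11.2% to 16.1% in ten-cell samples (12.8 ± 2.0, SD, n = 6), with no overlap (difference 11.8 percentage points, exact permutation two-sided p = 0.00433). The highest intensity on an array was 26715 to 41024 in SCE and 7884 to 14400 on the 12 ten-cell arrays. The 12 single SP cells, also amplified from the input of 1 cell, had a top share of 21.5% to 33.0%.

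Of the transcripts seen on every ten-cell array, about 1 in 2 was seen in every one-cell aliquot. There were 1474 probe sets above the floor on all 12 ten-cell arrays, and 780 of them (52.9%) were above it in all 5 SCE. A further 330 were seen in 4 SCE, 188 in 3, 96 in 2 and 61 in 1, and 19 (1.29%) in none. A single aliquot held on average 81.9% of the 1474. The share seen in all SCE rose with the ten-cell level: it was 30.6% of 173 probe sets at a level of 8 to 9, 39.2% of 441 at 9 to 10, 57.2% of 528 at 10 to 11, 74.5% of 278 at 11 to 12 and 86.4% of 44 at 12 to 13. At a ten-cell level of 11 or more, no probe set was missed by all 5 SCE. In the other direction, 1266 probe sets were above the floor in all SCE, and the shared 780 are 61.6% of that list.

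**Figure D2:**
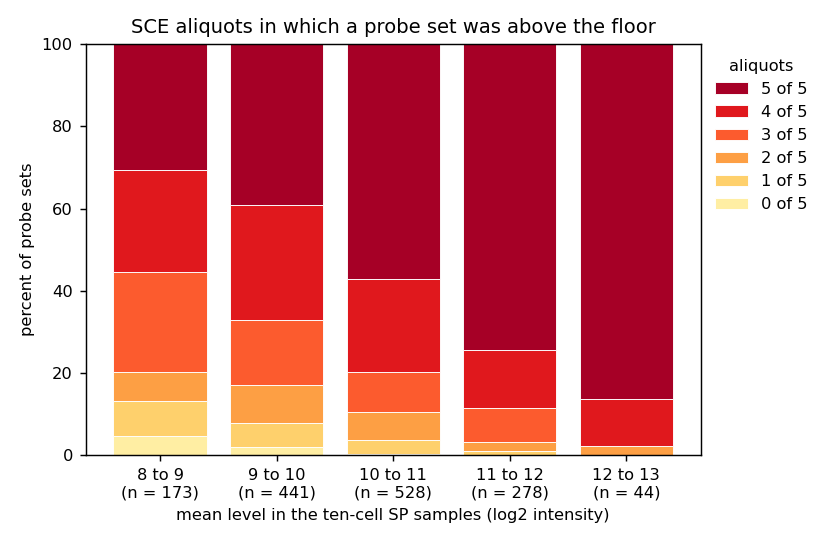
Share of the probe sets above the floor on all 12 ten-cell arrays (y axis, percent) that were above it in 0, 1, 2, 3, 4 or all 5 SCE, by their mean log2 level in ten-cell samples (x axis, with the number of probe sets; bins of fewer than 20 left out). The share seen in all 5 SCE climbs from 30.6% at a level of 8 to 9 to 86.4% at 12 to 13.

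The transcripts missed by every aliquot were of middle level and varied function. Of the 19, 15 are assigned to a single gene, and the highest in ten-cell samples was Vps41, a subunit of the complex that tethers endosomes to lysosomes, with 9.51, 10.20 and 10.38 in LSP and 10.05, 9.40 and 10.94 in USP and the floor in all SCE, at least 8.46-fold lower. Sf3b3, a spliceosome subunit, was 8.64 to 11.06 in ten-cell samples and at least 6.99-fold lower in SCE. Pcna, the clamp that holds DNA polymerase on its template, was 8.29 to 10.29 and at least 5.99-fold lower, and stood above the floor in only 3 of the 12 single cells, with a highest level of 8.0. Tmub2, Nsmaf, Psmc2 (an ATPase of the proteasome cap) and Rpl22 (a ribosomal protein) were at least 5.53-fold, 4.46-fold, 4.34-fold and 4.30-fold lower. Ap1b1, an adaptor for clathrin-coated vesicles, was also missed by every SCE, and its ten-cell levels ran from 7.27 to 10.76. The choice of these probe sets, too, fixes their direction, and no test of them is given here. Of the 19, 1 was at the floor in all 12 single cells, none was above it in all 12, and the median number of single cells above the floor was 3.

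The transcripts seen in every aliquot and on no ten-cell array were 72, of which 59 are assigned to a single gene, and the list holds genes that blood cells are not known for. Ncam1, a neural adhesion molecule, was 9.97, 9.71, 9.12, 8.98 and 9.42 in SCE A to E, at least 5.43-fold higher than in the ten-cell samples. Sprr1a, a protein of the cornified skin envelope, was 7.76 to 10.62 and at least 4.58-fold higher, and Col5a1, a fibrillar collagen, 8.23 to 9.03 and at least 3.06-fold higher. Nr2c2ap, Rps4x on probe set 162229_at and Stxbp2 were at least 5.38-fold, 3.35-fold and 3.02-fold higher. Ncam1, Nr2c2ap and Stxbp2 were read on probe sets 161750_f_at, 161841_r_at and 162272_r_at. Of the 72, 27.8% carry a suffix _r, _i or _f (relaxed design, incomplete set or sequence family), against 16.1% of those tested. H1f2, a linker histone (7.02 to 11.13), and Adar, an RNA-editing enzyme (7.48 to 10.07), were just over the floor in some SCE. The choice of these probe sets fixes their direction, so no test of them is given here. Ncam1, Sprr1a and Col5a1 were also above the floor in all 12 single cells, and on CD8 arrays they were at most 8.26, 7.97 and 7.53. Of the 72, 20 were above the floor in all 12 single cells and 35 on no CD8 array, and the median number of single cells above the floor was 10. The SCE, single-cell and CD8 arrays all hold positive values alone, unlike most ten-cell SP arrays, and with the 3 ten-cell arrays of positive values alone as reference, 145 probe sets were gained and 102 lost. At a level of 9 in place of 7 as the limit for both sides, 12 were gained and 19 lost.

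Across all 8226 probe sets above the floor in at least 1 of the 11 samples, 252 were higher in SCE (3.06% of those tested) and 159 were lower (1.93%) at a limma adjusted p under 0.05. All 5 SCE lay above all 6 ten-cell samples for 271 probe sets (3.29%), and below them for 130 (1.58%). Of the 252, 222 were in the first set, and of the 159, 99 in the second. The higher ones had a median fold of 2.56 and the lower ones of 4.46. These lists sit at opposite ends of detection: 143 of the 252 had all ten-cell samples under a level of 8, and 89 of the 159 had all SCE under 8, while 67 of the 252 had a mean level above 12 in SCE. After quantile normalization 259 were higher and 98 lower, so the balance of the 2 directions depends on the scaling. With the ten-cell arrays of positive values alone (1 of LSP B and 2 of USP Z), LSP and USP hold 1 sample each. The spread in that fit comes from the SCE alone, so its calls are not counted. Its median difference over all tested was 0.067, against 0.009.

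Read by level, the differences formed a bend. The median difference was -0.60 for 1377 probe sets at a level of 8 to 9, with 28 higher and 75 lower, and -0.64 for 704 at 9 to 10, with 12 higher and 37 lower. It was 0.60 for 206 probe sets at 11 to 12, with 33 higher, 0.96 for 71 at 12 to 13, with 26 higher, and 1.43 for 11 at 13 or more, with 9 higher, and none of these was lower. After quantile normalization, which gives all samples 1 distribution, the same bins had medians of -0.15, -0.28, 0.07, -0.05 and -0.10. Centring on the probe sets above the floor on all arrays left the 3 brightest bins at 0.49, 0.87 and 1.32, with none lower. Quantile normalization removes a difference in distribution by its construction.

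**Figure D3:**
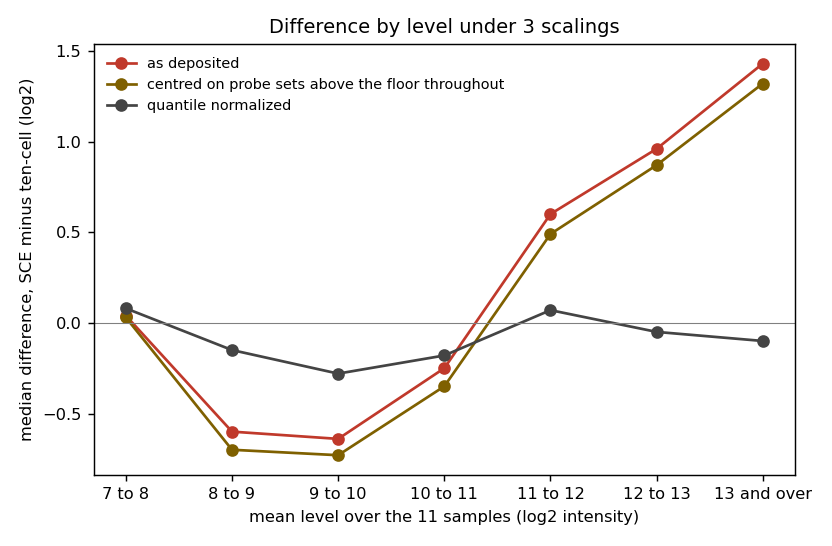
Median difference in log2 level, SCE minus ten-cell (y axis), by mean log2 level over the 11 samples (x axis), for intensities as deposited, centred on the probe sets above the floor on all arrays, or quantile normalized. As deposited the medians run from -0.64 at a level of 9 to 10 up to 1.43 at 13 and over, and after quantile normalization from -0.28 to 0.08.

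Among the 10 largest increases, 2 kinds of gene were seen. Sf1, a splicing factor that binds the branch point, was 11.65, 11.94, 10.76, 11.45 and 11.06 in SCE A to E against 7.0 to 7.97 in ten-cell samples, at least 13.3-fold higher (3.73 ± 0.24 on the log2 scale, limma adjusted p = 5.18e-05). Sirpa, the receptor for CD47 on myeloid cells, was 10.05 to 11.02 against 7.0 to 8.13, at least 10.0-fold higher (limma adjusted p = 5.18e-05), and Tax1bp1, an adaptor of selective autophagy, 9.83 to 10.34 against 7.0 to 7.47, at least 7.40-fold higher (limma adjusted p = 8.38e-06). Mdfi, an inhibitor of myogenic factors, Ctrl, a chymotrypsin-like protease, and Rpl32 on probe set 160478_r_at were likewise close to the floor in all ten-cell samples and 13.4-fold, 5.97-fold and 6.31-fold higher in SCE. These 6 had ten-cell levels of at most 8.27. Sf1, Mdfi and Ctrl were read on probe sets 161894_r_at, 100432_f_at and 160744_r_at, so that, with Rpl32, most of the 6 rest on an _r or _f design.

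Apart from Hba-a1, the others had higher ten-cell levels. Timm8b, which carries proteins through the space between the mitochondrial membranes, was 11.60 to 13.26 in SCE and 7.0 to 10.19 in ten-cell samples, at least 10.9-fold higher (3.44 ± 0.40, limma adjusted p = 0.0014). Krt18, a keratin of simple epithelia, was 13.95, 13.83, 11.59, 13.75 and 13.41 in SCE against 9.69 to 11.48, 5.82-fold higher (2.54 ± 0.46, limma adjusted p = 0.0145), though not past the test against LSP alone or USP alone (limma adjusted p = 0.14 and 0.0572). Ninj1, a membrane protein that acts in membrane rupture, was 12.07 to 12.71 against 8.73 to 10.62, 5.57-fold higher (limma adjusted p = 0.00328). In 8 of the 10, the median of the 12 single SP cells was above the ten-cell mean; the exceptions are Hba-a1 and Timm8b, whose single-cell medians were 7.98 and 7.0.

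The 10 largest decreases were from ten-cell means between 10.46 and 11.89 to SCE means between 7.0 and 8.06, with the floor in place. All 10 had SCE at the floor, so their folds are lower bounds and their order depends on the floor. The transcript 1700097N02Rik was 11.04 to 12.54 in ten-cell samples and at the floor in SCE A to D, with 7.17 in SCE E, at least 22.3-fold lower (limma adjusted p = 8.75e-06). Foxo3, a transcription factor that keeps hematopoietic stem cells quiescent and protects them from oxidants, was 10.81, 10.38 and 10.28 in LSP and 10.41, 10.01 and 10.85 in USP but 7.0 in SCE A to D and 7.36 in SCE E, at least 10.5-fold lower (limma adjusted p = 1.21e-05). Tfdp1, the partner of E2F factors, was 10.58 to 12.66 in ten-cell samples and 7.0, 10.16, 7.0, 7.0 and 9.16 in SCE, at least 12.2-fold lower (limma adjusted p = 0.0148), though not past the test against LSP alone or USP alone (limma adjusted p = 0.138 and 0.0686). Foxo3 and Tfdp1 differ in kind: the first was at or near the floor in every aliquot, and the second was present at a good level in 2 of 5.

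The rest of the 10 were Brix1 (ribosome assembly, at least 16.8-fold lower), Arhgap9 (a GTPase-activating protein, at least 16.0-fold), Rasa4 (a Ras GTPase activator, at least 11.5-fold), Tmed3 (cargo transport from the endoplasmic reticulum, at least 10.7-fold), Zbtb45 (a zinc finger protein, at least 10.5-fold), Ythdf3 (a reader of N6-methyladenosine in mRNA, at least 10.2-fold) and Mapre1 (a protein of growing microtubule ends, at least 9.66-fold). Arhgap9 was 10.88 in SCE E and 7.56 or less in the other 4, and did not pass against LSP alone or USP alone (limma adjusted p = 0.146 and 0.0567). Rasa4 was at the floor in all 12 single cells too, and 7.0 to 11.58 on CD8 arrays. For all 10, the median of the single SP cells was below the ten-cell mean, and it was 8.33 at most.

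Among genes of stem cell regulation, 1 of 25 transcription factor probe sets was higher and 1 lower, with a median difference of 0.00. Each is 4.0% of the list, against 3.06% higher and 1.93% lower over all tested. The lower one was Myb, a factor that stem and progenitor cells need to proliferate, with 9.0 to 10.50 in ten-cell samples and 7.0 in SCE A to D and 7.63 in SCE E, at least 6.60-fold lower (limma adjusted p = 0.00113), and the floor in all 12 single cells. The higher one was Ldb1, the scaffold of the Lmo2 and Tal1 complex, with 7.46 to 8.78 in SCE and 7.0 to 7.49 in ten-cell samples (1.10 ± 0.24, limma adjusted p = 0.0324). Tal1 itself was 8.94, 8.34, 7.0, 7.32 and 7.0 in SCE against 8.11 to 10.40, and did not pass (limma adjusted p = 0.122). Tie1, a receptor of endothelial and stem cells, was 10.75 to 12.16 in SCE and 10.41 to 11.93 in ten-cell samples on probe set 161184_f_at (limma adjusted p = 0.964). On its other probe set, 99936_at, it was 8.59, 7.0, 10.74, 7.0 and 7.0 in SCE A to E. The ten-cell samples had 7.0 to 10.7 there (difference -0.53 ± 0.84, limma adjusted p = 0.73).

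Of 25 surface protein and efflux pump probe sets, 2 were higher (8.0%, 3.06% over all tested) and 1 lower (4.0%, 1.93% over all tested). Flt3, the cytokine receptor of early progenitors, was on both sides. Its probe set 95296_r_at was 8.22 to 9.25 in SCE and 7.0 to 7.63 in ten-cell samples, at least 2.65-fold higher (limma adjusted p = 0.00244), while 95295_s_at was 7.0 in the other SCE, 7.57 in SCE C and 7.0 to 10.13 in ten-cell samples, a difference of -1.62 ± 0.33 (limma adjusted p = 0.0245). The latter difference was -0.77 against LSP alone (limma adjusted p = 0.495) and -2.47 against USP alone (limma adjusted p = 0.00615). Over all tested only 3.06% were higher and 1.93% lower, so an uncalled other probe set of a called gene is the usual case. Of 189 genes with a higher probe set, 74 had another probe set tested: in 70 of these at least 1 other was not called, and in 29 at least 1 had the opposite sign. Of 141 genes with a lower probe set, 44 had another one, in 42 of these 1 or more was not called and in 18 one had the opposite sign. Flt3 was the only gene called in both directions. Probe sets whose suffix (_r, _i or _f) marks a relaxed design, an incomplete set or a sequence family made up 36.9% of the 252 higher ones, 15.7% of the 159 lower ones and 16.1% of those tested.

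Ribosomal protein genes, among the most abundant messages of any cell, had the largest median difference of the 19 lists on the deposited scale. Of 35 probe sets tested, 14 were higher (40.0%, 3.06% over all tested) and 1 lower (2.86%, 1.93% over all tested). A difference above 0 was seen for 32, and the median was 0.90 against 0.009 over all tested. Rpl10a on probe set 161327_f_at was 12.54 to 13.29 in SCE and 10.05 to 11.93 in ten-cell samples (2.05 ± 0.35, limma adjusted p = 0.0102), Rps3 was 11.70 to 12.70 against 10.16 to 11.01 (1.53 ± 0.24, limma adjusted p = 0.00625), and Rpl8 was 12.62 to 13.09 against 11.23 to 12.18 (1.14 ± 0.19, limma adjusted p = 0.00825). Rpl22, lower in SCE, is the exception named above. After quantile normalization, 6 of 36 were higher and 1 lower and the median was 0.36, below the 0.40 of the megakaryocyte list. With ten-cell arrays of positive values alone it was 0.41, below the 0.61 of the cytoskeleton list. The members are bright genes, and the bend by level lies in the same direction.

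Oxidative phosphorylation genes, which encode the respiratory chain and ATP synthase, had 9 of 82 probe sets higher, none lower and a median of 0.31, with 61 above 0. The shares over all tested were 3.06% higher and 1.93% lower, and the median difference over all tested was 0.009. Cox7a2l, which joins respiratory complexes, was 12.82 to 13.39 in SCE and 9.92 to 11.86 in ten-cell samples, 4.52-fold higher (2.18 ± 0.29, limma adjusted p = 0.00295). Ndufa2 of complex I was 12.26 to 13.35 against 11.01 to 11.73 (1.67 ± 0.21, limma adjusted p = 0.00237), and Uqcr10 of complex III 12.34 to 13.18 against 10.88 to 12.09 (1.64 ± 0.25, limma adjusted p = 0.0066). Atp5d of the ATP synthase was 10.27 to 12.14 against 9.54 to 9.90 (1.79 ± 0.31, limma adjusted p = 0.0114). With quantile normalization, 9 of 81 were higher and 2 lower, with a median of 0.21.

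Cytoskeleton genes had 3 of 18 higher (16.7%, 3.06% over all tested) and 1 lower (5.56%, 1.93% over all tested). Their median of 0.67 was 0.10 after quantile normalization, when 1 was higher and none lower. Actb, beta-actin, was 12.71 to 13.67 in SCE and 11.57 to 12.76 in ten-cell samples (limma adjusted p = 0.021), Tmsb10, an actin-binding peptide, was 3.80-fold higher (limma adjusted p = 0.00855), and Lcp1, the actin bundler of white cells, was 5.03-fold lower (7.01 to 9.19 against 9.01 to 10.82, limma adjusted p = 0.0293).

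Of 36 cell cycle probe sets, 3 were lower, Pcna, Top2a and Mcm3 (8.33%, against 1.93% over all tested). None was higher, where the share over all tested was 3.06%. Of the 36, 7 had a difference above 0, with a median of -0.43 (-0.30 after quantile normalization). Against LSP alone the median was -0.07 with 16 of 35 above 0, against USP alone it was -0.91, and with ten-cell arrays of positive values alone it was -0.01. Top2a, the topoisomerase that separates chromosomes, was 8.89 to 10.79 in ten-cell samples and 7.0 in SCE A, B, D and E and 7.58 in SCE C, at least 6.15-fold lower (limma adjusted p = 0.00322). Mcm3, a subunit of the replicative helicase, was 9.05, 8.72 and 9.84 in USP and 7.16, 7.99 and 7.0 in LSP, with 7.74 in SCE C and the floor in the other SCE (-1.15 ± 0.27, limma adjusted p = 0.0433). The lysate came from the tip of the SP and the ten-cell samples did not all do so, and the part of the gate in these 3 genes was not tested beyond setting LSP and USP apart: Pcna and Top2a passed against each of the 2.

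Splicing and RNA-binding genes had 1 of 51 higher and 2 lower (1.96% and 3.92%, against 3.06% and 1.93% over all tested). Of the 51, 11 were above 0, and the median was -0.50 (-0.36 after quantile normalization). That median is close to the -0.60 and -0.64 of all probe sets at levels of 8 to 9 and 9 to 10. Hnrnpa2b1 was 7.0 to 9.03 in SCE and 9.92 to 10.82 in ten-cell samples, at least 5.10-fold lower (limma adjusted p = 0.00586), Sf3b3 is described above, and Snrpg, a small ribonucleoprotein subunit, was 2.18-fold higher (limma adjusted p = 0.0307). Glycolysis genes had a median of -0.40 with 0 of 15 called. Translation factors (2 of 54 higher, median -0.06) held Eif3k, 13.49 to 14.25 in SCE against 12 to 12.76, and Eif2b5, 8.63 to 9.39 against 7.0 to 7.53, with limma adjusted p of 0.00158 and 0.00023.

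The remaining lists moved little, and their counts stand beside shares over all tested of 3.06% higher and 1.93% lower. Of 53 proteasome probe sets, Psmb4 was higher (2.42-fold, limma adjusted p = 0.016) and Psmc2 lower, with a median of 0.07. Of 19 redox probe sets 1 was higher, Sod1, the cytosolic superoxide dismutase, with 12.54 to 13.34 in SCE against 10.58 to 12.02 (limma adjusted p = 0.00734). Of 43 chaperone probe sets, Cct6a and Hsp90aa1 were higher from near the floor and Hspa4 lower (7.0 to 9.04 against 9.37 to 10.96, limma adjusted p = 0.0381), with a median of -0.03. The median of the redox list, -0.07, and that of the chaperones were above 0 after quantile normalization, at 0.08 and 0.07. Of 22 immediate early gene probe sets, which respond within minutes to handling, 1 was higher, Junb on probe set 102363_r_at (at least 2.24-fold, limma adjusted p = 0.0258). Of 29 antigen presentation and interferon probe sets, 2 were higher: Tap2, the peptide transporter, was 8.57 to 9.43 in SCE and 7.0 to 7.31 in ten-cell samples (limma adjusted p = 0.000124), and Cd74, the class II invariant chain, was 9.01 to 11.57 against 7.0 to 7.88 in 5 ten-cell samples and 10.34 in LSP M (limma adjusted p = 0.0411, and 0.429 against LSP alone).

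**Figure D4:**
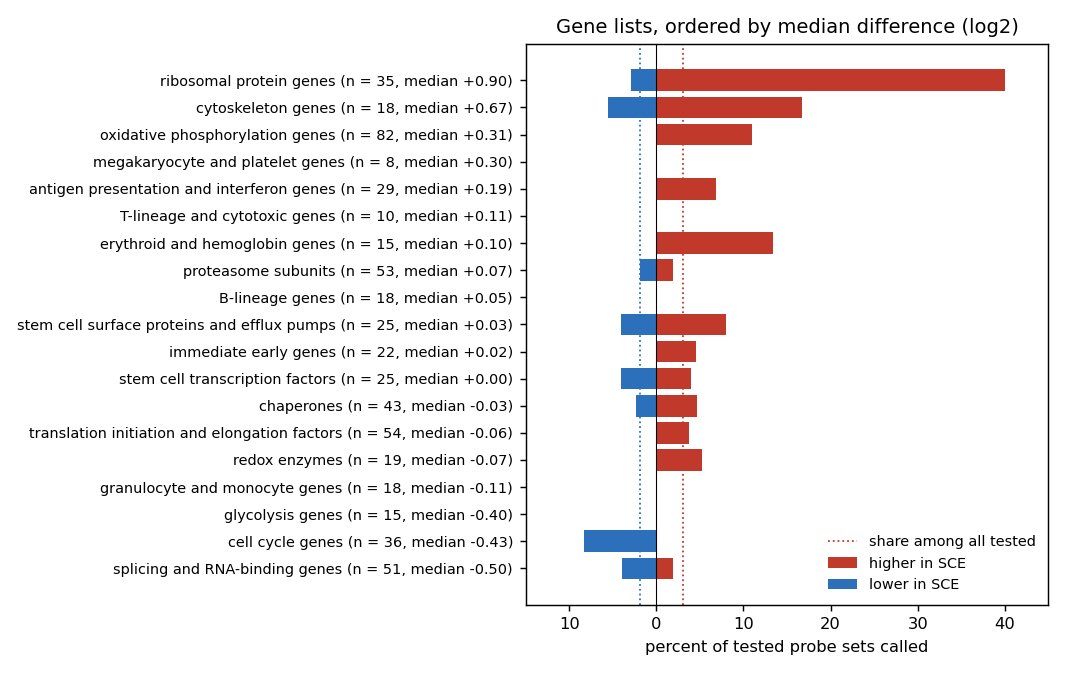
Percent of the tested probe sets of each gene list that were higher (right) or lower (left) in SCE at a limma adjusted p under 0.05 (x axis), with the lists ordered by median log2 difference (y axis) and dotted lines at the shares over all tested, 3.06% and 1.93%. Ribosomal protein genes, with a median of 0.90, lie at the top and splicing and RNA-binding genes, with -0.50, at the bottom.

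The 8 probe sets with 1 assigned gene that were highest in SCE had an SD between aliquots of 0.21 (Uhmk1) to 0.81 (Ubl5). Use1 was 14.18 to 14.91, Mrpl52 14.03 to 14.97, Uhmk1 14.17 to 14.70 and Rpl41 13.91 to 14.61, against 12.11 to 13.01, 12.30 to 13.46, 12.76 to 13.55 and 12.62 to 13.56 in ten-cell samples. Lst1 was 13.69 to 15.06 in SCE, and Ubl5 was 14.41, 14.38, 12.64, 13.94 and 14.67. All 8 (with Rpl7 and Tmsb10) passed as higher in SCE. After quantile normalization the differences of Lst1, Uhmk1 and Rpl41 were -0.26, -0.26 and -0.25 and none of the 3 passed, while centring on the probe sets above the floor on all arrays left them at 1.32, 1.28 and 1.15, each passing.

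Other messages that every ten-cell sample held were caught by some aliquots and missed by others. Npc2, a lysosomal cholesterol carrier, was 11.16 to 12.60 in the 6 ten-cell samples but 13.34, 14.32, 10.54, 7.0 and 13.53 in SCE A to E. Park7, an antioxidant sensor, was 9.32 to 11.28 in ten-cell samples and 9.35, 14.45, 13.20, 13.54 and 7.0 in SCE. Smarcc1, a subunit of the SWI/SNF chromatin remodeler, was 10.98 to 12.63 and 7.66, 14.37, 13.34, 7.0 and 8.67. In each of these 3, at least 1 aliquot was at the floor and another was more than 1 log2 unit above every ten-cell sample.

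The same was seen for Etfb (electron transfer to the respiratory chain), 8.33 to 11.85 in ten-cell samples and 13.22, 8.01, 13.71, 7.0 and 14.25 in SCE, and for Wwp2 (a ubiquitin ligase), 7.55 to 11.41 and 12.83, 9.92, 7.0, 13.24 and 13.92. Rnpepl1, Ndufa5 and H3c14 completed the 8 widest, with SCE ranges of 7.0 to 14.62, 7.48 to 14.97 and 7.0 to 14.87. None of the 8 passed the test, with limma adjusted p from 0.377 to 0.91. The aliquot that missed a gene was not always the same: it was SCE D for Npc2, Etfb and Smarcc1, SCE E for Park7 and H3c14, SCE C for Wwp2 and SCE A and E for Rnpepl1.

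**Figure D5:**
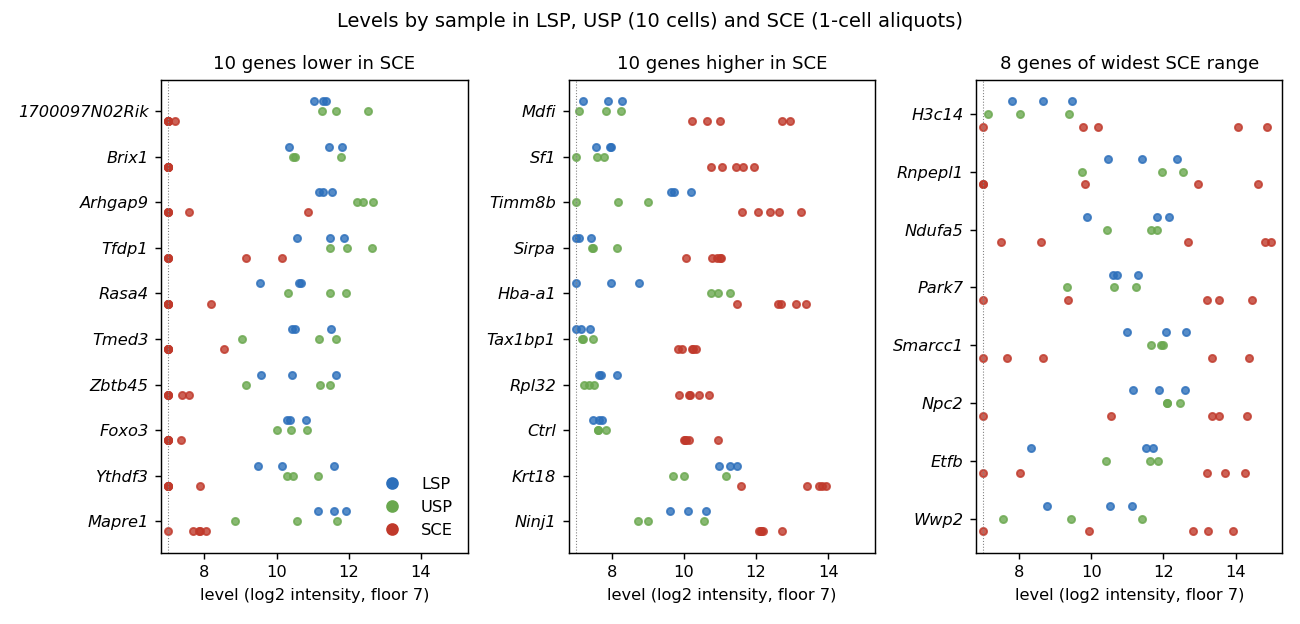
Log2 level (x axis, floor at 7, dotted line) of the 10 genes of largest decrease, the 10 of largest increase and the 8 of widest SCE range (y axis), with 1 point for each LSP, USP and SCE sample. SCE points are apart from all ten-cell points in the first 2 panels, and in the third they lie on both sides of them, as for Npc2, from the floor to 14.32.

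Over the 857 probe sets above the floor in all 11 samples, the median SD between SCE was 0.831 and between ten-cell samples 0.563 (0.526 within LSP and 0.55 within USP), and the SCE had the smaller SD for 279. The gap was seen at each level: 0.856 against 0.717 for 312 probe sets at 8 to 10, 0.859 against 0.543 for 457 at 10 to 12, and 0.513 against 0.377 for 80 at 12 or more. It was not seen after quantile normalization (0.641 against 0.635). Ten-cell samples also differ in the cells pooled, which SCE do not, and they are means of 2 arrays. Each SCE is a single amplification, while the paper describes pooling of several ten-cell amplifications. Whether they differ in mice is not given by the labels. As a description over 8226 probe sets, which share scaling and floor, Pearson's r was 0.564 to 0.582 between SCE, 0.63 to 0.731 between ten-cell samples and 0.522 to 0.577 between the 2 kinds.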

How the data were processed

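The authors deposited 1 table of linear signal intensities for MG-U74Av2 arrays, each array scaled to a common 2% trimmed mean; these are not the RMA levels of the methods, and the software behind them is not given in the sources used here. Of 12488 probe sets, 66 controls were left out. The platform annotation gives 1 gene to 10833 of the other 12422, several to 396 and none to 1193; 10815 of the symbols have a RefSeq entry. Intensities under 128 were set to 128, logged (log2) and averaged over duplicate arrays.

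With limma 3.58.1 (R 4.3.3), means of LSP, USP and SCE were estimated on the 8226 probe sets above the floor in 1 or more samples, taking the contrast SCE minus the mean of LSP and USP and Benjamini-Hochberg adjustment over all of them. Every adjusted p quoted is from limma; calls were made under 0.05. Numbers per sample were compared with a two-sided exact permutation test in scipy 1.17.1. On simulated data with the real levels, this comparison recovered 2.9%, 18.2% and 59.1% of probe sets changed by log2 1, 2 and 4, with 2 false calls among 55. Each simulated probe set had 1 spread in all groups, so an unequal spread of SCE and ten-cell samples was not covered. Changes were placed only at mean levels of 9 to 13, while 5446 of the 8226 tested lie at 7 to 8. The precision is limited by the number of arrays.

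Named genes were Lmo2, Hba-a1, the 10 largest called differences each way without overlap, 8 lost, 8 gained, 8 widest in SCE, 8 brightest, and up to 2 called members of each list each way. S100a9, Mpo, Elane, Alas2, Car2, Cd79a, Cd79b, Vwf, Pf4, Tal1 and Tie1 are from the marker lists, and further members of the lists were named after their values were seen. Members and lists were chosen with earlier results of these data known. Alternatives were other floors, quantile normalization, centring, ten-cell arrays with positive values alone, LSP or USP alone, either array alone, duplicates as a random block, array weights, a filter on low levels, the SCE mean as 1 sample and each replicate left out.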

Additional observations from a re-analysis of the deposited data

Results flagged for a closer look

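Of 53 sets of 5 SCE values, those of the named probe sets above the floor in all SCE and some measures of the whole arrays, 4 had 1 aliquot that stood apart from the other 4 by Dixon's test at its 95% critical value, which chance gives for about 1 group in 20. Sirpa was lowest in SCE C, at 10.05, Krt18 was lowest in SCE C, at 11.59, Ctrl was highest in SCE A, at 10.95, and Ninj1 was highest in SCE E, at 12.71. All 4 genes had been chosen for SCE levels above every ten-cell sample, so leaving out that aliquot could not bring overlap.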

How the results depend on the processing

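The 65 called probe sets named kept their direction under each alternative that tested them, except that quantile normalization reversed Lst1 (-0.26), Uhmk1 (-0.26) and Rpl41 (-0.25). They were all chosen as called, and many for ranges without overlap, so the choice itself largely fixed their direction. Their calls were lost for 30 with the SCE mean as 1 sample, 26 with duplicates as a random block, 24 with ten-cell arrays of positive values alone, 21 against LSP alone and 20 against USP alone, and of the 159 lower calls 43 held with the SCE mean as 1 sample. With floors at log2 6, 8 and 9, the number higher in SCE was 487, 126 and 99, against 252; it was 93 with ten-cell arrays of positive values alone, 125 against LSP alone, 127 against USP alone, 1974 with the SCE mean as 1 sample, 144 without _r, _i and _f probe sets (chosen after seeing the data), and 186 to 274 with each replicate left out. The number lower was 159, but 81 with a floor at 9, 98 after quantile normalization (beside 259 higher), 756 with positive values alone, 84 with duplicates as a random block, 95 with the SCE mean as 1 sample and 128 to 242 with each replicate left out, the highest without USP Z. The share of calls that were higher was 61.3%, but 72.0% with a floor at 6, 72.5% after quantile normalization, 51.0% against LSP and 49.8% against USP. The difference in probe sets per sample, 149.1 at the floor, was 1249.6 at 6 (exact permutation p = 0.00433), -633.3 at 8, -640.4 at 9, -276.7 at 10 (chosen after seeing the data) and -0.2 after quantile normalization (exact permutation p = 1). Lost probe sets, 19, were 10 with a floor at 6, 102 with positive values alone, 58 against LSP, 66 against USP and 20 to 36 with each replicate left out (30 without LSP B, 32 without LSP M, 33, 36, 32 and 29 without SCE A, C, D and E). Gained ones, 72, were 32 and 12 with floors at 8 and 9, 145 with positive values alone, 118 against USP and 76 to 112 with each replicate left out, the highest without SCE C. The excess SD of SCE, 0.268, was 0.093 with a floor at 9, 0.006 after quantile normalization and 0.444 with positive values alone. The causes were not tested. Of the 65, 52 kept their call without each replicate in turn. Nr2c2ap, Rps4x, Lst1, Ubl5, Ldb1, Flt3, Hbb-b2, Hspa4, Junb, Cd74, Snrpg, Actb and Lcp1 lost it in 1 or more. Nr2c2ap and Rps4x are gained probe sets, whose direction was fixed by their choice, so no p is given for them. Among the others, the highest limma adjusted p was 0.106 for Ubl5 (without SCE B) and 0.0927 for Cd74 (without SCE A). It was 0.0878 for Hspa4 (without USP N) and 0.0821 for Hbb-b2 (without SCE E). For the rest it was 0.0543 (Actb, without SCE B) to 0.075 (Snrpg, without SCE B). No paired analysis was possible because the SCE carry no replicate number shared with the ten-cell samples.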
